A study of Homo sapiens with 2 samples.

Results

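The 6p block is the stretch of chromosome 6 from 25 to 45 Mb (hg19) that holds the large histone gene clusters, the major histocompatibility complex (MHC) and the gene-dense region of 6p21. Its members were the peaks of the authors' merged list with a midpoint in that stretch, and 417 of the 20085 peaks in the list met this rule. The rule uses position alone, so where the members lie was fixed by it, and the stretch itself was chosen with earlier results of these data known. The list came from CUT&Tag of untreated NB4 cells with an antibody labelled PML-RARA, in 2 replicates of 1 group. Whether these were separate cultures is not stated in the labels. The deposited list merges both replicates and gives 1 set of values, so no value has a spread, no comparison has a p-value, and agreement between replicates could not be examined. A control library was not analysed here.

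NB4 is a cell line derived from acute promyelocytic leukemia, a leukemia of cells arrested at the promyelocyte stage of granulocyte development. It carries PML-RARA, a fusion of the PML protein with retinoic acid receptor alpha (RARA) that binds DNA at retinoic acid response elements and at sites shared with myeloid factors such as PU.1. In CUT&Tag, an antibody brings a transposase to the bound protein in permeabilised cells, and the transposase cuts and tags the DNA around it. Sequenced fragments therefore pile up around the antibody's target, and SEACR, a caller made for such sparse data, joins them into peaks. For each peak the list gives a total signal, read here as the coverage summed over the bases of the peak, and a maximum signal, read as the highest coverage within it. Both are the authors' values, and a long peak gathers more total signal than a short one of the same height.

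The region is organised by function. The histone clusters hold small intronless genes for the core histones H2A, H2B, H3 and H4 and the linker histone H1, which are transcribed during DNA replication. The same stretch holds butyrophilin, zinc finger and transfer RNA genes, and a group of olfactory receptor genes lies between the histone clusters and the MHC. MHC class I genes such as HLA-B and HLA-C present peptides from inside the cell to cytotoxic T cells. MHC class II genes such as HLA-DRA and HLA-DRB1 present peptides taken up from outside to helper T cells, and are read mainly in professional antigen-presenting cells. Between the classes lies class III, one of the most gene-dense parts of the human genome, with the cytokine genes TNF, LTA and LTB, the heat shock genes HSPA1A and HSPA1B, and the complement genes C2, CFB, C4A and C4B. Past the MHC, 6p21 holds the glucocorticoid-responsive co-chaperone gene FKBP5, the kinase gene SRPK1, the cell cycle genes CDKN1A and CCND3, and the kinase gene PIM1, among others.

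The promoters of 6 genes of the block are shown here because their start sites could be placed on hg19 and set against the peaks. Each is the stretch of 250 bases before the start of the gene in RefSeq (GRCh38.p14), written 5′ to 3′ on the strand of the gene, and each comes from an entry whose span differed from that of the hg19 gene model by at most 50 bp. Capitals mark any of 5 motifs on either strand: AGGTCA, the core element bound by nuclear receptors such as RARA, GAGGAAGT, a core bound by PU.1, the GC box GGGCGG, the CCAAT box and the TATA box TATAAA. STK19 is listed as WHR1 in the RefSeq table. H4C2 and H4C8 lie in the histone clusters, TRIM40 in class I, STK19 in class III, and FKBP5 and SRPK1 in 6p21. TRIM40 is shown as a start with no peak near it, and the other 5 as starts that lie in a peak.
H4C2 (minus strand): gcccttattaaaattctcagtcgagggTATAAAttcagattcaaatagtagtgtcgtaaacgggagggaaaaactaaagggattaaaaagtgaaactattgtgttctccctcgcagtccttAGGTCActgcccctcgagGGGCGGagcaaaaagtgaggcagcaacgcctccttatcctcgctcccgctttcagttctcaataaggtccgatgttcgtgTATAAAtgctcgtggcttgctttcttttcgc
H4C8 (minus strand): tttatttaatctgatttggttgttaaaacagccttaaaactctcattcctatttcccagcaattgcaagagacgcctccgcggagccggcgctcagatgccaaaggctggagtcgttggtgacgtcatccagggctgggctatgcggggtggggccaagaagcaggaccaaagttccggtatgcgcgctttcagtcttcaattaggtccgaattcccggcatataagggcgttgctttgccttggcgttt
STK19 (plus strand): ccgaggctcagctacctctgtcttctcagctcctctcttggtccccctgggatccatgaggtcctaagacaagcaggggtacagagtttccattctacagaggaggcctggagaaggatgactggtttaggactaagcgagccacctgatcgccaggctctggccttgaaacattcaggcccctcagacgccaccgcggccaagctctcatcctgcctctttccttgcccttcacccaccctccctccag
FKBP5 (minus strand): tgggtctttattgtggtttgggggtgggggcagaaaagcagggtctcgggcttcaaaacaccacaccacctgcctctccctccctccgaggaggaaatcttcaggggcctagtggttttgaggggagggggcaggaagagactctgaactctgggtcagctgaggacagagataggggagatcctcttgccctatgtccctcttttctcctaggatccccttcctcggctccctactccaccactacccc
SRPK1 (minus strand): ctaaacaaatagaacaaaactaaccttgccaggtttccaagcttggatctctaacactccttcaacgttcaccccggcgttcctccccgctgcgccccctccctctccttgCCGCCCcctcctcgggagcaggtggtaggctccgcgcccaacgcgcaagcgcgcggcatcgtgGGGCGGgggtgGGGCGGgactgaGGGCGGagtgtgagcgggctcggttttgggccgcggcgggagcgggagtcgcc
TRIM40 (plus strand): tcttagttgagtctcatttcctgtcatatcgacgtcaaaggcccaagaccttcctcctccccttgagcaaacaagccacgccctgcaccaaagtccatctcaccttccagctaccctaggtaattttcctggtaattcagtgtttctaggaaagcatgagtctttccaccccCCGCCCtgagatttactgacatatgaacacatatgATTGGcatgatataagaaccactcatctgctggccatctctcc

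The H4C2 promoter held 1 AGGTCA element, 1 GC box and 2 TATA boxes. The SRPK1 promoter held 4 GC boxes and had a CpG observed over expected ratio of 0.897. The promoters of H4C8, STK19 and FKBP5 shown here held none of the 5 motifs, and that of TRIM40 held 1 GC box and 1 CCAAT box. FKBP5 had a CpG ratio of 0.145, STK19 of 0.294 and TRIM40 of 0.316, against a median of 0.558 (quartiles 0.220 to 0.845) over 35116 RefSeq promoters. Other RefSeq promoters of the same genes differ: a second FKBP5 entry, of another start, had a CpG ratio of 0.856 with 3 GC boxes and 1 CCAAT box, and another STK19 entry one of 0.913 with 1 GC box and 1 CCAAT box. These entries differ from the hg19 models in span and were not set against the peaks. Among those 35116 windows, 12.1% held AGGTCA, 2.17% GAGGAAGT, 42.6% the GC box, 32% CCAAT and 10.7% TATAAA. The 55 promoter windows of histone genes on chromosome 6 held CCAAT in 47 cases (85.5%), TATAAA in 36 (65.5%), the GC box in 10 (18.2%), AGGTCA in 8 (14.5%) and GAGGAAGT in 0. The histone gene H4C3 had no promoter entry, so its promoter is not shown. These windows are therefore not 1 for each of the 55 histone genes listed here. A match of letters is a description of the window and not a measured binding site.

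The block was dense in peaks, but its typical peak was about as strong as elsewhere. It held 20.8 peaks per Mb (95% exact Poisson interval 18.9 to 23), against 3.24 (2.96 to 3.54) on the rest of chromosome 6 and 6.61 on chromosomes 1 to 22 and X, which include the block. Of the 907 peaks on chromosome 6, 490 lay outside the block. The block took 2.08% of the peaks and 2.19% of the total signal of the chromosomes on 0.659% of their length. Peaks covered 2.56% of its bases, against 0.316% on the rest of chromosome 6 and 0.779% on the chromosomes. All intervals given cover counting error only, and neighbouring peaks are not independent of each other.

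The median total signal of the 417 members was 6860 (quartiles 3777 and 14227), beside 6130 on the rest of chromosome 6 and 6478 on the chromosomes. Their median maximum was 23, beside 22 in both. Their median length was 964 bp, beside 814 and 893 bp. In the whole list, 10.0% of peaks have a total signal of 29695 or more, called the top 10% here, and 42 members (10.1%, 95% Wilson interval 7.54 to 13.3) belonged to it. By maximum signal the top 10% began at 68 and, with ties, held 10.3% of the list, and 46 members (11.0%) belonged to it. Of the list, 11.0% of peaks were longer than 2 kb, and 47 members (11.3%) were. These 3 shares were close to those of the list. Members lay closer together than the list as a whole: 61.4% of listed peaks had a neighbour within 10 kb, against 296 members (71.0%, 66.5 to 75.1) and 43.3% on the rest of chromosome 6. The 42 members of the top 10% held 47.0% of the block's total signal, and the 10 strongest held 24.4%.

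**Figure D1:**
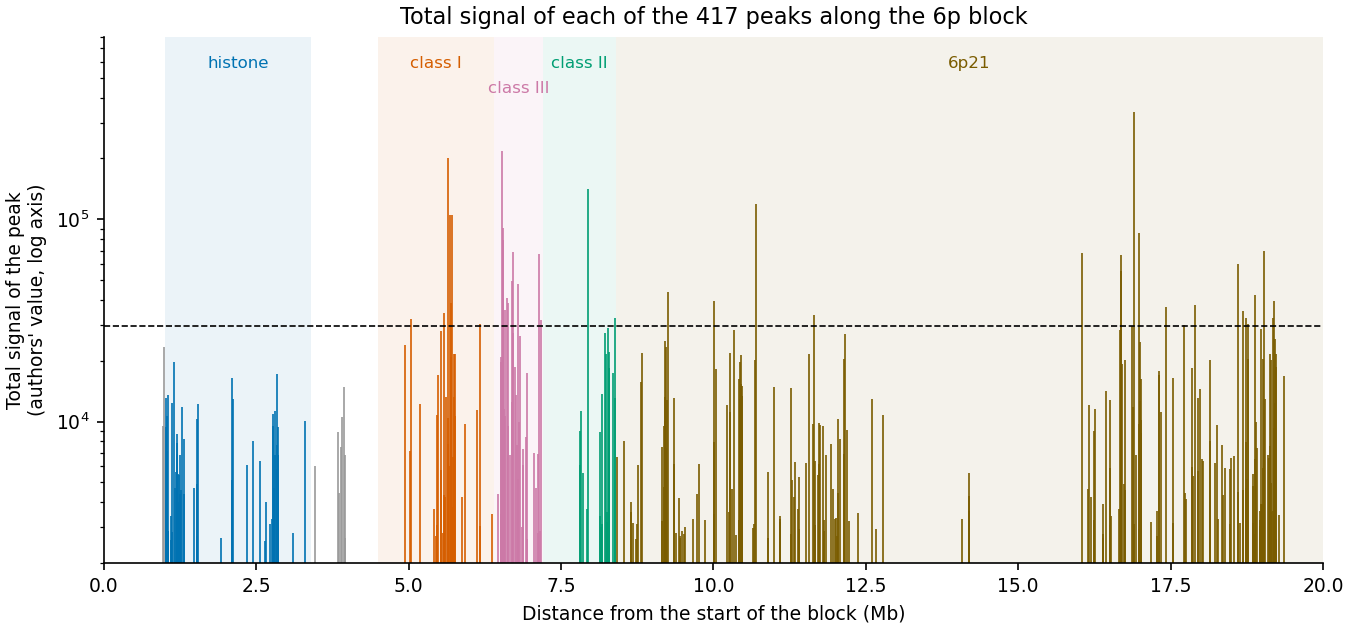
Total signal of each of the 417 peaks (vertical lines, log axis) against distance from the start of the block in Mb, coloured and shaded by sub-block (grey lines lie between sub-blocks), with the border of the top 10% of the list at 29695 as a dashed line. No line in the histone clusters reaches the border, and the tallest stands in 6p21 at 337697.

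Density and strength divided the block in different ways. The 62 peaks of the histone clusters (26 to 28.4 Mb) gave 25.8 peaks per Mb (19.8 to 33.1). The 38 peaks of class I (29.5 to 31.4 Mb) gave 20 per Mb (14.2 to 27.5), the 26 of class II (32.2 to 33.4 Mb) gave 21.7 (14.2 to 31.7), and the 238 of the 6p21 stretch (33.4 to 45 Mb) gave 20.5 (18.0 to 23.3). These 4 intervals overlap. Class III (31.4 to 32.2 Mb) held 43 peaks and 53.8 per Mb (38.9 to 72.4), an interval that did not overlap theirs. This is 8.13 times the density of the chromosomes. The remaining members lay at the edges of the histone clusters: 2 peaks between 25 and 26 Mb and 8 between 28.4 and 29.5 Mb, or 2.00 and 7.27 per Mb.

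By strength the order was another. The share of peaks in the top 10% by total signal was 27.9% in class III (12 of 43, 16.7 to 42.7), 18.4% in class I (7 of 38, 9.22 to 33.4), 8.82% in 6p21 (21 of 238, 5.84 to 13.1) and 7.69% in class II (2 of 26, 2.14 to 24.1). None of the 62 histone cluster peaks belonged to it, a count that allows a share of up to 4.84%. By maximum signal the class II share was 19.2% (5 of 26), so its place depends on the measure, while 0 of 62 histone cluster peaks belonged to the top 10% by either. The 3 MHC classes together held 107 peaks, 21 of them (19.6%, 13.2 to 28.1) in the top 10% by total signal, and 39.5% of the block's signal on 19.5% of its length.

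**Figure D2:**
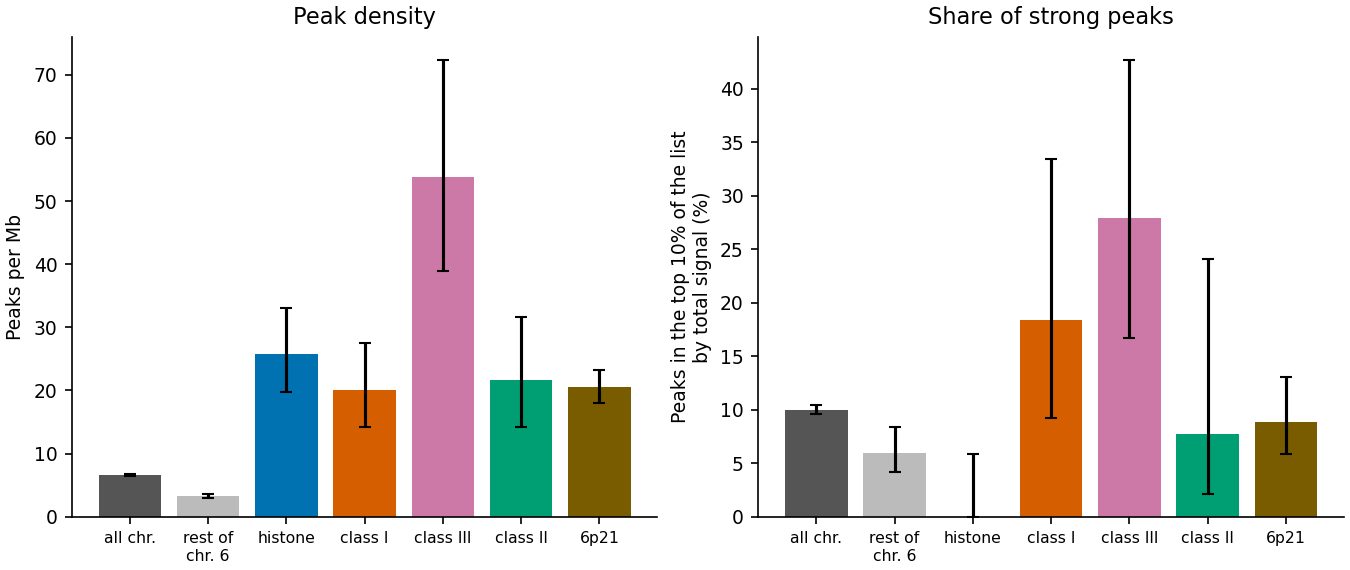
Peaks per Mb (left, bars with exact Poisson intervals at 95%) and percent of peaks in the top 10% of the list by total signal (right, bars with Wilson intervals at 95%) for chromosomes 1 to 22 and X, the rest of chromosome 6 and the 5 sub-blocks. The histone clusters stand at 25.8 peaks per Mb on the left and at 0 on the right, and class III is highest in both, at 53.8 per Mb and 27.9%.

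The histone clusters held many weak peaks of even height. Their median total signal was 5746 and their median maximum 18.5, beside 6478 and 22 on the chromosomes, and their maxima ran only from 9 to 55. They held 14.9% of the block's peaks on 12% of its length, but 7.13% of its signal. The mean signal per covered base was 7.31, against 15.8 in class III and 16.8 in class I. Only 2 of the 62 (3.23%) were longer than 2 kb, against 11.0% of the list. A neighbour within 10 kb was found for 47 (75.8%, 63.8 to 84.8), against 61.4% of the list. The share of the whole block, 71.0%, lies within that interval. Length and maximum were loosely related there, with Spearman's rho 0.248 over the 62 peaks, against 0.631 over the 43 of class III and 0.682 over the 38 of class I, a description across peaks of the same libraries. Among peaks of 600 to 1500 bp, the median maximum was 20 in the histone clusters (39 peaks), the same as on the chromosomes (12438 peaks), and the highest was 55. In class I, by the same lengths, the median maximum was 31 (25 peaks), in class II 28 (15 peaks), in class III 25 (23 peaks) and in 6p21 20.5 (148 peaks). At matched length the median height in the clusters was thus that of the chromosomes, and no peak there reached the maximum of 68 at which the top 10% begins.

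**Figure D3:**
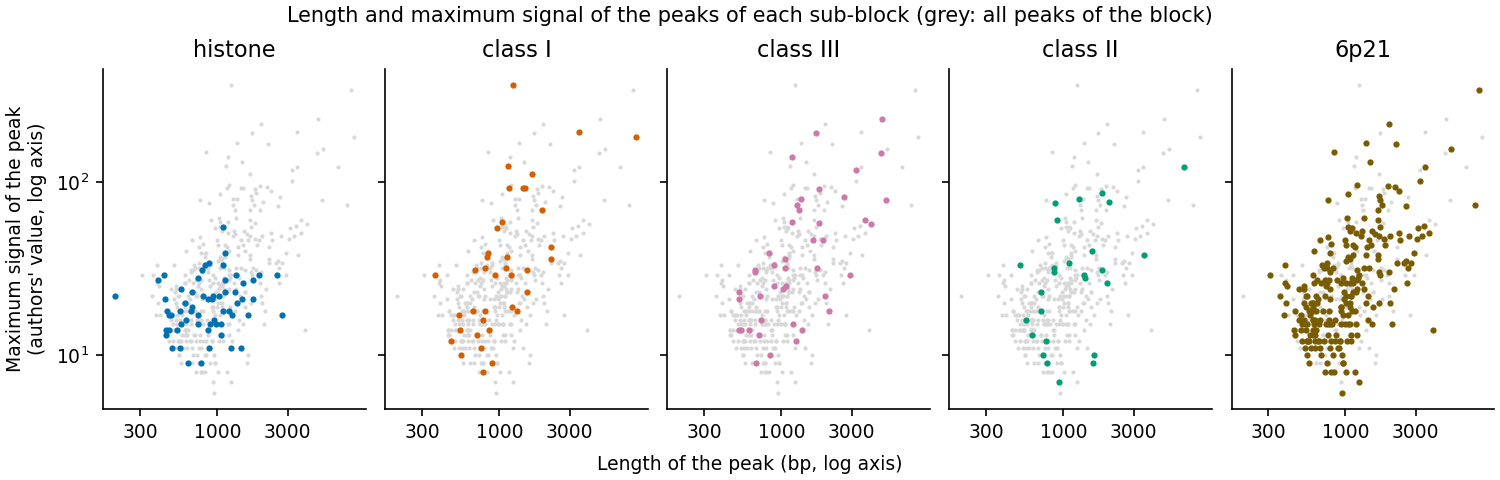
Maximum signal against length in bp for the peaks of each sub-block (coloured points, both axes log), over all 417 peaks of the block (grey). The histone cluster points stay at or under a maximum of 55 at every length, while class I reaches 366.

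**Figure D4:**
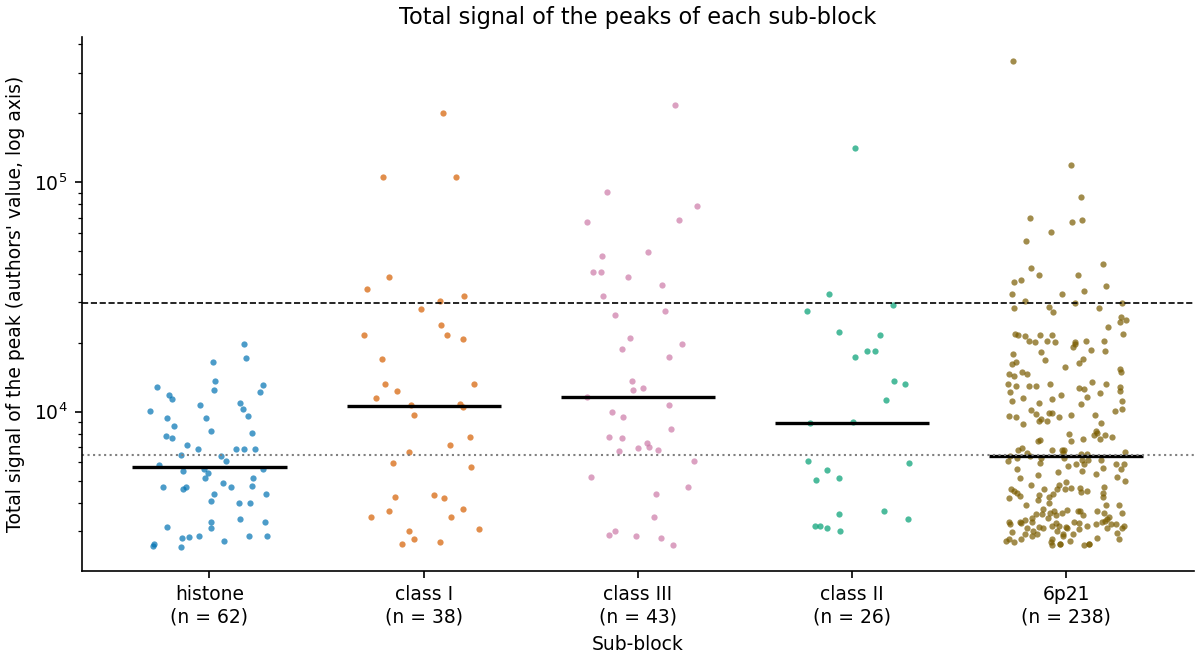
Total signal of every peak (points, log axis, spread sideways only to be seen) in the 5 sub-blocks, with the median of each as a black bar, the border of the top 10% at 29695 as a dashed line and the median of the whole list, 6479, as a dotted line. Medians run from 5746 in the histone clusters to 11581 in class III, and the points of all sub-blocks overlap at low signal.

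Within the histone clusters the peaks fell into groups, split here wherever neighbours lay more than 100 kb apart. The first and largest group, chr6:26020535-26323533, held 31 peaks over 303 kb (102 per Mb) with maxima from 9 to 39. A second large group, chr6:27560299-27864229, held 18 peaks over 304 kb (59.2 per Mb). A smaller group of 5 peaks lay at chr6:26474085-26538929 and one of 3 at chr6:27100002-27115426. The window from 26 to 26.5 Mb, with 32 peaks, ranked 68th among 6087 windows of 500 kb on the chromosomes by its number of peaks and 352nd by its signal of 216436. The run of 9 peaks at chr6:26020535-26056601 (neighbours at most 10 kb apart) summed to 69339 over 36.1 kb, with single totals from 2859 to 13585. The strongest histone cluster peak, chr6:26156391-26158932, had a total of 19803 and a maximum of 29, which placed it 3408th in the list. The next were chr6:27832792-27835545 (total 17156, maximum 17) and chr6:27100002-27101091 (total 16407, maximum 55). The 62 totals therefore spanned 2579 to 19803, and the strongest peak took 4.57% of the clusters' signal.

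Start sites on hg19 were known for 3 of the 55 histone genes, all of them H4 genes, and each lay in a peak. H4C2 (chr6:26027124-26027480, minus strand) lay wholly within the peak chr6:26026464-26027727, which had a total of 9411 and a maximum of 17. H4C8 (chr6:26285354-26285727, minus strand) lay wholly within chr6:26285209-26286329, with a total of 11793 and a maximum of 27. H4C3 (chr6:26104176-26104565, plus strand) had 76.9% of its length in chr6:26103846-26104475, with a total of 2588 and a maximum of 9. That peak ranked 20047th of 20085 and lies just above the lowest total in the list, 2577. A second peak, chr6:26105051-26105494, lay within 2 kb of the H4C3 start. The peaks at these short genes were thus longer than the genes at H4C2 and H4C8, and their totals differed from gene to gene. Histone genes of one type encode near-identical proteins and are similar in sequence. How reads that fit several copies were treated is not given in the sources used here, and its part in the signal at single histone genes was not tested.

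Counting peaks that lie wholly between 2 kb past one placed gene and 2 kb before the next, those in the first histone cluster were about as many as genes. Between H4C2 and H4C3 lay 6 peaks and 6 protein-coding genes in RefSeq order, namely 5 histone genes and the iron regulator gene HFE. Between H4C3 and H4C8 lay 17 peaks and 21 protein-coding genes, all of them histone genes, which makes 0.810 peaks per gene. From H4C8 to the olfactory receptor gene OR12D2, the interval of the butyrophilin genes, the remaining histone genes and most zinc finger genes of the stretch, 41 peaks faced 62 genes (0.661). Across the chromosomes 20072 peaks faced 19974 protein-coding genes, or 1.00 per gene. Gene counts are from RefSeq on another build and serve only for order and number.

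Between the histone clusters and class I the peaks stopped. Of the 8 peaks from 28.4 to 29.5 Mb, the strongest was chr6:28945081-28946277 (total 14858, maximum 40), followed by chr6:28908134-28909667 (10479) and chr6:28833742-28834822 (8836). No peak lay between 28950169 and 29932338, a gap of 982 kb. OR12D2, an odorant receptor gene starting at 29364416, lies in this gap, and its nearest peak was 414247 bp away. Between OR12D2 and the ubiquitin ligase gene TRIM40 lay 17 protein-coding genes, among them 5 olfactory receptor genes, HLA-F and HLA-G, and 3 peaks (0.176 per gene). Of the 20049 gaps between neighbouring peaks on the chromosomes, 622 were longer than this one.

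In class I, peaks were sparse at the end nearer the histone clusters and strong in the middle. Only 4 of the 38 peaks lay before 30.4 Mb, with 8.92% of the stretch's signal, and 4 lay from 31 Mb on, with 5.71%. The window from 30.5 to 31 Mb held 25 peaks and 81.0% of the signal of class I. Its signal of 684535 ranked 44th among the 6087 windows. The longest peak of the block, chr6:30649572-30657994, spans 8422 bp there, with a total of 200734 and a maximum of 183. Some 27 kb on, the peak chr6:30684687-30685932 had the highest maximum of the block, 366, over only 1245 bp, and a total of 105003. A total of 84.3 per base made it the steepest member, and its maximum ranked 30th in the list. The third, chr6:30709140-30712608, had a total of 104887 and a maximum of 194. These 3 peaks held 48.6% of the class I signal. The last 2 belong to a run of 9 peaks, chr6:30684687-30737714, that summed to 307387.

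The broad peak and the steep one ranked 63rd and 236th by total and were of unlike shape. The first is 8422 bp long with 23.8 of signal per base, and the second is 1245 bp long with 84.3. The start of TRIM40 (30103917, plus strand), one of the class I stretch's TRIM genes, had no peak within 2 kb, and its nearest was 68431 bp away at chr6:30033999-30035486 (total 32021). No start site on hg19 was known for the class I genes HLA-B, HLA-C, HLA-E, HLA-F, HLA-G, MICA and MICB, so no peak was assigned to them. By order, HLA-F and HLA-G lie in the sparse interval before TRIM40, and HLA-E, HLA-C, HLA-B, MICA and MICB lie between TRIM40 and DXO. That second interval held 69 peaks with a total of 1753161 beside 83 protein-coding genes (0.831 per gene), 3 of them HLA genes. It reaches into class III and takes in a run of 12 peaks there with a total of 512629. Its counts therefore do not describe the peaks at these class I genes.

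Class III held the densest signal of the block and the largest share of bases in peaks. Its 43 peaks covered 8.81% of its bases, against 2.65% in class I, 3.12% in class II, 2.46% in 6p21 and 2.47% in the histone clusters. Its signal per Mb, 1392791, was 15.3 times that of the chromosomes (91169), and it took 18.4% of the block's signal on 4.0% of its length. The covered length was 70486 bp at a mean of 15.8 per covered base. Class I had a slightly higher mean per covered base, 16.8. Of the 43 peaks, 9 (20.9%, 11.4 to 35.2) were longer than 2 kb, against 11.0% of the list. A neighbour within 10 kb was found for 35 (81.4%, 67.4 to 90.3), against 61.4% of the list and 71.0% of the block. The window from 31.5 to 32 Mb held 35 peaks and a signal of 986480, which ranked 52nd by peaks and 19th by signal among the 6087.

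The run with the most peaks in the block lay in class III. It joined 12 peaks over 55.9 kb at chr6:31509267-31565168 and summed to 512629, which is 46.0% of the signal of class III and 8.44% of that of the block. Its peaks ran from a total of 2883 to the strongest of class III, chr6:31525558-31530389, with 217211 over 4831 bp and a maximum of 231, the 50th in the list. The next strongest, chr6:31553179-31556383 (total 90323, maximum 118) and chr6:31546042-31551149 (total 78745, maximum 79), lay next to each other. Outside the run, a second string of strong peaks included chr6:31702051-31706779 (total 68745, maximum 147) and chr6:31694903-31698952 (total 49409, maximum 57). The stretch past 32 Mb held chr6:32145058-32146780, with a total of 67353 and a maximum of 193.

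Of the 20 class III genes listed here, 2 had a start known on hg19, and they share a peak. DXO, a decapping exonuclease gene read from the minus strand, starts at 31940032, and STK19, a gene first described as a kinase and read from the plus strand, starts at 31939646. Both starts lie in chr6:31939031-31940936, with a total of 17350 and a maximum of 46, which reaches 904 bp upstream and 1001 bp downstream of the DXO start. A weaker peak, chr6:31938241-31938913 (total 2615, maximum 9), lies within 2 kb of both. The other 18 genes, which include TNF, LTA, LTB, HSPA1A, HSPA1B, C2 and CFB, could not be placed. Of these, SKIC2, NELFE, CFB, C2, EHMT2, the 3 HSPA1 genes, BAG6, AIF1, LTB, TNF and LTA lie between TRIM40 and DXO by RefSeq order, the interval that also holds the long run.

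Class II began with a long empty stretch. No peak lay between 32164429, the end of the last class III peak, and 32806254, a gap of 642 kb. All 26 class II peaks therefore lay in the part of the stretch past 32806254. The strongest, chr6:32934684-32941231, spans 6547 bp and had a total of 141404 and a maximum of 123, which is 32.5% of the signal of class II and the 126th total in the list. The next, chr6:33377554-33379591 (total 32489, maximum 77) and chr6:33264618-33268151 (total 29051, maximum 38), were far weaker. The first of these is just inside the top 10% and the second just outside it. The median total of class II, 8952, stood between that of 6p21 (6396) and those of class I (10562) and class III (11581). Of its 26 peaks, 19 (73.1%) lay in runs of 3 or more, against 44.0% of the list and 52.8% of the block.

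None of the 17 class II and antigen processing genes listed had a start known on hg19. In RefSeq order, HLA-DRA, HLA-DRB1, HLA-DQA1, HLA-DQB1, the peptide transporter genes TAP1 and TAP2, the immunoproteasome genes PSMB8 and PSMB9, the chromatin reader gene BRD2 and the retinoid X receptor gene RXRB all lie between STK19 and LEMD2. That interval held 59 protein-coding genes, 13 of them HLA genes, and 39 peaks with a total of 586607 (0.661 per gene). It reaches from class III into the 6p21 stretch. It takes in class III genes such as C4A, TNXB and NOTCH4 and the class III peak chr6:32145058-32146780 (total 67353). Its counts therefore do not describe class II alone. The band 6p21.32, where all 17 lie, held 32 peaks beside 51 protein-coding genes (0.627 per gene). The neighbouring band 6p21.33, with 18 of the 20 class III genes, held 72 peaks beside 81 (0.889).

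The 6p21 stretch held most of the members and the strongest one. Its 238 peaks made up 57.1% of the block's peaks and 51.9% of its signal, on 58.0% of its length. Its medians, 6396 for total signal and 22 for the maximum, were near those of the chromosomes, 6478 and 22. The strongest peak, chr6:41902115-41910184 in band 6p21.1, spans 8069 bp and had a total of 337697 and a maximum of 339. It ranked 9th of 20085 by total and 41st by maximum, and held 5.56% of the signal of the block. The third strongest of the stretch, chr6:41977293-41979279, lay 67 kb on, with a total of 85955 and a maximum of 218 over 1986 bp. The window from 41.5 to 42 Mb, which holds both, had 25 peaks and a signal of 773994 (37th of 6087 by signal), of which the strongest peak made up 43.6%.

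Peaks were unevenly spread along 6p21. The 2 longest gaps of the block lie here, 1842 kb from 39197572 to 41039492 and 1295 kb from 37787572 to 39082588. Between 37.8 and 41 Mb there were only 4 peaks, with 0.532% of the signal of the stretch. On the near side of these gaps, 33.4 to 37.8 Mb held 109 peaks with 35.0% of the signal, and on the far side, 41 to 45 Mb held 125 peaks with 64.5%. By 1 Mb bins, the count went from 40 peaks at 43 to 44 Mb and 36 at 41 to 42 Mb to 0 at 38 to 39 and at 40 to 41 Mb. The windows from 43.5 to 44 and from 44 to 44.5 Mb each held 26 peaks, the third most in the block, with signals of 342828 and 388311. Across the block, 8 of 40 windows of 500 kb (20%) were empty, against 52.9% on the chromosomes, and the 3 strongest windows held 40.3% of the signal.

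The longer runs of 6p21 differed in the height of their peaks. The run of 11 peaks at chr6:35435749-35466954 summed to 129420 over 31.2 kb, with single totals from 2938 to 21422 and no maximum above 43. The run of 8 at chr6:34191308-34217348 summed to 97162 over 26 kb, with totals from 3778 to 25023 and maxima up to 62. Among the shorter runs, that of 7 peaks at chr6:41975144-41998927 had totals from 2932 to 85955 and a maximum of 218, and another of 7 at chr6:44019552-44042599 had totals from 2936 to 70032 and a maximum of 123. Over the 8 runs of 5 or more peaks in 6p21, the highest maximum of the run went from 43 to 218. The class III run of 12 had 3.96 times the signal of the run of 11, and its strongest peak alone had more than that run as a whole. Of the whole list, 44.0% of peaks lay in runs of 3 or more. In the block, 50 such runs held 220 members (52.8%, 48.0 to 57.5), against 22.9% on the rest of chromosome 6. The members in them had a median total of 7849 against 6812 for the 121 members with no neighbour within 10 kb.

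Of the genes that could be placed, FKBP5 had the strongest peak at a start, by its 1 hg19 model. The start of that model, 35696360 on the minus strand, lay in chr6:35693161-35700751, the second strongest peak of 6p21. That peak had a total of 118752 and a maximum of 74 over 7590 bp. The peak reached 4391 bp upstream and 3199 bp downstream of the start. Its maximum ranked 1762nd against 186th for its total, so it stood out less by height than by total signal. That maximum is still above the 68 at which the top 10% begins. Over the 155 kb of the gene lay 4 peaks, which covered 3.88% of it. Besides the start peak these were chr6:35656484-35657087 (total 2975, maximum 16), chr6:35659129-35659674 (total 3095, maximum 12) and chr6:35687049-35688720 (total 20233, maximum 38). The promoter shown above for FKBP5 lies within the start peak by the hg19 model and held none of the motifs searched. The second RefSeq entry, which held GC boxes and a CCAAT box, spans 115326 bp against 154994 bp for the one shown. Its start was not placed on hg19, so the start peak above is not assigned to it, and which peak lies there was not tested.

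The other placed genes of 6p21 had weaker peaks. SRPK1, a kinase gene for splicing factors, has 3 models, and the peak at its start, chr6:35888531-35889160, had a total of 5636 and a maximum of 18. A second peak lay within 2 kb, and these 2 were the only ones over the 88.1 kb of the gene. LEMD2, a gene for a protein of the inner nuclear membrane that starts at 33756907 on the minus strand, had its nearest peak, chr6:33755710-33756636 (total 6074, maximum 19), 271 bp downstream of the start. By the starts of the hg19 models, the start peaks of FKBP5 and SRPK1 thus had totals of 118752 and 5636, at lengths of 7590 and 629 bp. Past the FKBP5 start peak, which reaches into the interval, no peak lay between FKBP5 and SRPK1, an interval of 0.104 Mb with 5 protein-coding genes, among them the pancreatic colipase gene CLPS. Between LEMD2 and FKBP5, in contrast, 51 peaks faced 24 protein-coding genes (2.12 per gene), among them HMGA1, a gene for an architectural chromatin protein, and PPARD, a gene for a nuclear receptor.

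**Figure D5:**
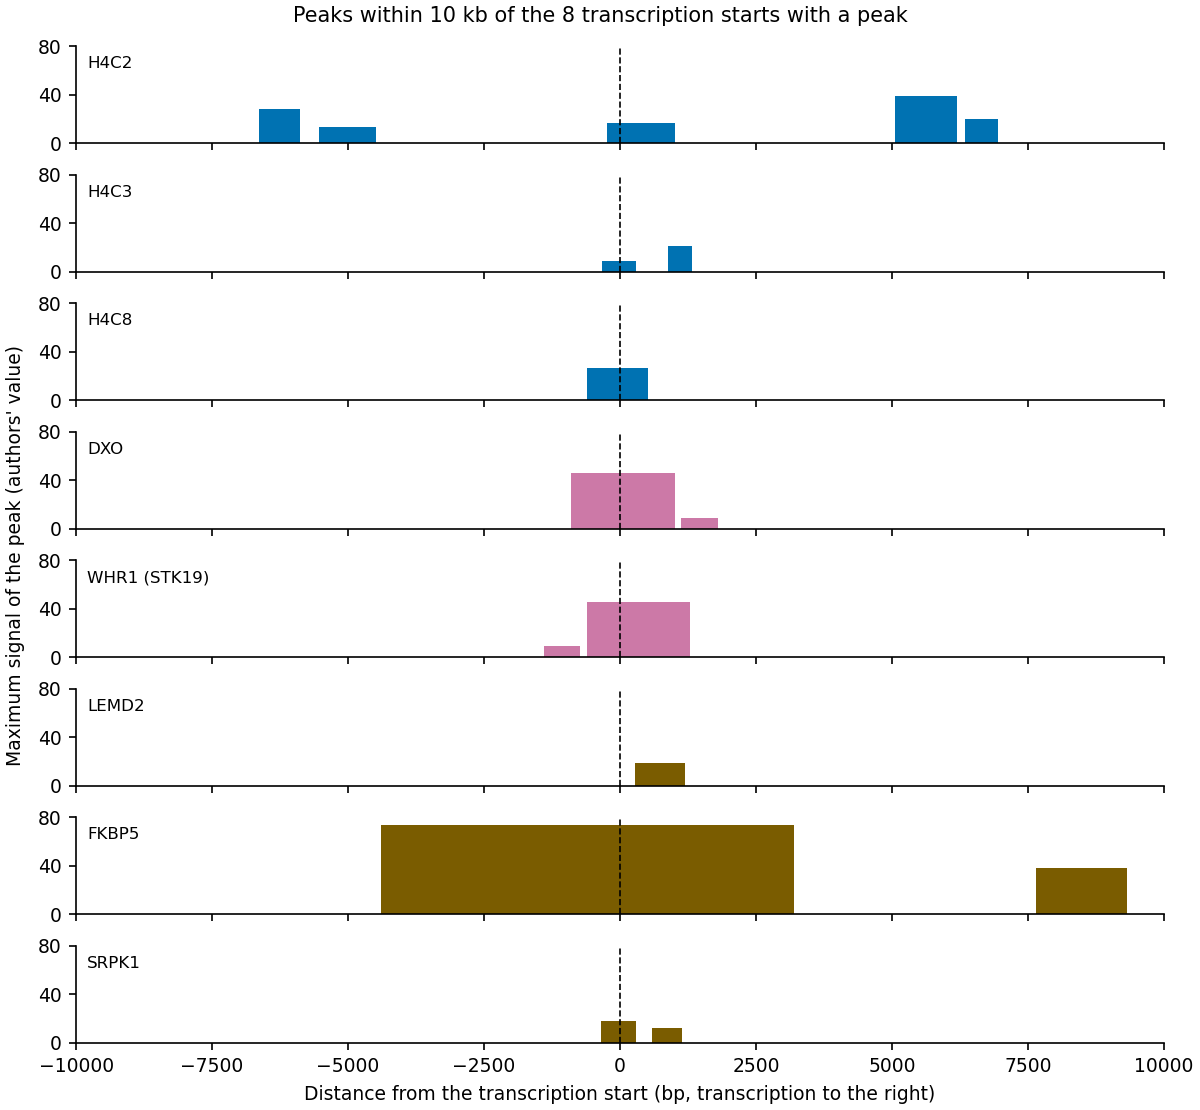
Peaks within 10 kb of the 8 start sites that had a peak within 2 kb, drawn from the start (dashed line) in the direction of transcription in bp, with bar height the maximum signal and bar width the length. The FKBP5 peak, with a maximum of 74, is the widest and tallest, and the H4C3 peak, with a maximum of 9, is the lowest at a start.

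In all, 8 of the 10 genes with a known start had a peak within 2 kb of it, 3 of 3 histone H4 genes and 5 of 7 others. The other 2, OR12D2 and TRIM40, had none. The 10 genes are those present in installed samples of gene models and are not a sample of the block, so this share says nothing of its other genes. By band, peaks per protein-coding gene differed along the arm: 0.765 in 6p22.2 (39 peaks, 51 genes, 34 of them histone genes), 0.463 in 6p22.1 (37 and 80), 0.889 in 6p21.33, 0.627 in 6p21.32, 1.66 in 6p21.31 (78 and 47), 1.17 in 6p21.2 (34 and 29) and 1.48 in 6p21.1 (132 and 89). The 4 bands from 6p22.2 to 6p21.32 were thus below the 1.00 of the chromosomes and the 3 bands from 6p21.31 to 6p21.1 above it. Per Mb the order differed, with 42.4 peaks in 6p21.33, 25.2 in 6p21.31 and 23.2 in 6p21.1. Of the 132 peaks in 6p21.1, 125 are members. The counts per gene join peaks on hg19 to genes on GRCh38 by the name of the band alone.

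The ends of the block fell in empty stretches. The last peak before it, chr6:24951946-24952704 (total 6869), was 1010 kb from the first member, chr6:25962365-25963114 (total 9545), and the last member, chr6:44355119-44355884 (total 16794), was 989 kb from the next peak, chr6:45344883-45346341 (total 17806). No peak spanned the border between sub-blocks, so the choice of midpoint or overlap moved no member.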

How the data were processed

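CUT&Tag libraries of NB4 cells (2 replicates, 1 group) were sequenced as read pairs. Per the submitters' processing notes, Trimmomatic, Bowtie2, SAMtools, bedtools and SEACR were used with build hg19. Versions, settings, the treatment of reads that map to several places and the depth of each library: not given in the sources used here. A single merged list of 20085 peaks, with 2 signal columns and no values per replicate, was deposited by the authors. The column headed as a width exceeded the length of the peak in all 20085 rows and in 0 rows exceeded the length times the other column, so the deposited signal values were read as SEACR's total and maximum signal. That reading is not stated by the authors. Coordinates are printed as the list gives them, and starts may count from 0.

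Members were taken by midpoint. Densities carry exact Poisson and shares Wilson intervals at 95%, and a count of 0 the limit of 3 counts. Runs join peaks at most 10 kb apart. Bands and chromosome lengths were those of hg19 in circlize 0.4.16 and GenomeInfoDb 1.38.1. No hg19 annotation was used; start sites came from gene models installed with GenomicFeatures 1.54.1 (labelled hg19) and pyranges 0.1.4 (no build named, but its STK19 start adjoins the DXO start of the first). Gene order and promoters were RefSeq GRCh38.p14. Counts of listed genes with a peak at the start, intended for every gene list, were possible for 10 genes only. Peaks named are the 10 strongest, the 3 strongest of each sub-block, the longest, the 3 tallest, and the leading runs, gaps and windows. Those at 31702051, 31694903 and 32145058 were added after their values were seen. Members, sub-blocks and gene lists were chosen with earlier results of these data known. Scripts were tested on simulated data (Python 3.11.15, R 4.3.3).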

Additional observations from a re-analysis of the deposited data

How the results depend on the processing

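Alternatives were recomputed for 32 results, 74 values in all, and 68 of them stayed within the counting interval or within 1.5 times the count. Of these, the class II share in the top 10% went from 0.769 to 1.87 times that of the list when ranked by maximum signal, so its direction is not settled, and the 6p21 median went from 0.987 to 1.00. With only the top 10% of the list by total signal, the density ratio of the histone clusters to the chromosomes went from 3.91 to 0, that of class I from 3.03 to 5.59, and that of class III from 8.13 to 22.7. With only the peaks at or above the list's median total, that of class III was 12.5, and genes with a peak at the start numbered 5 in place of 8. Windows without a peak were 10.0% in place of 20% with windows of 1000 kb. The share of bases in peaks for these stronger peaks was an alternative chosen after seeing the data. No paired analysis was possible because the study has 1 group and the list merges its replicates. For the same reason leaving out a replicate could not be run. The depth of the libraries is unknown, so it cannot be said how many weak peaks a deeper list would add.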

Other observations

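Transfer RNA genes are concentrated in the bands of the histone clusters. The RefSeq table places 47 in 6p22.2 and 97 in 6p22.1, together most of the 155 on chromosome 6, out of 465 on all chromosomes. They are not among the protein-coding genes counted above, and their overlap with the peaks was not tested because none has a position on hg19 here.

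The list holds 13 peaks on contigs outside chromosomes 1 to 22 and X and 0 on the alternative haplotypes of chromosome 6, of which 6 appear in the hg19 gene models. Whether reads of this variable region were aligned with or without those haplotypes is not given in the sources used here, and its part in the signal of the MHC was not tested.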
